A study of Mus musculus with 12 samples.

Results

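The genes described here are the constant segments of the T-cell receptor and the CD3 chains that carry its signal, in 12 thymic T-cell lymphomas of C57BL/6 mice. There are 8 genes on the list (Trac, Trbc1, Trbc2, Trdc, Cd3d, Cd3e, Cd3g and Cd247), matched by Ensembl identifier to the 37991 rows of the count table. Of the 8, 7 had a row and all 7 passed the filter that left 18612 genes. Trdc, the delta constant gene, had no row under its GENCODE M21 identifier and was not analysed here. Per the labels, 4 tumours were non-responders to p53 restoration and 8 were responders, each with 1 RNA-seq library. Every mouse had the genotype p53neo/R172H;R26CreER/GNZ, which pairs a p53neo allele with the R172H mutant allele and a Cre recombinase driven from the Rosa26 locus. All tumour-bearing mice received weekly tamoxifen to switch Cre on and reactivate wild-type p53. No untreated tumour is among the samples, so both groups had restoration attempted and differ in the response label, which rests on growth or shrinkage seen by MRI. The labels give no age, sex or batch for the animals. The series' design text calls the samples independent, and p-values measure the spread between tumours.

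The receptor of most T cells is a pair of alpha and beta chains, in which a rearranged variable part recognises antigen and a constant part anchors the chain in the membrane. Neither chain can signal by itself. The CD3 gamma, delta and epsilon chains and the zeta chain (Cd247) assemble with it and carry the tyrosine motifs, called ITAMs, that the kinase Lck phosphorylates and to which ZAP-70 then binds. In thymocytes the beta locus rearranges before the alpha locus. The beta locus holds a pair of near-identical constant genes, Trbc1 and Trbc2, each placed behind its own cluster of joining segments, so the joining segment used normally decides which constant gene a cell transcribes.

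Library totals lay between 20796860 and 24393524 counts in non-responders and between 23808086 and 30265753 in responders. Trp53 averaged 69.2 ± 4.36 CPM in non-responders and 69.3 ± 20.8 CPM in responders (SD, n = 4 and 8), where CPM is counts per 1000000 after scaling between libraries. These counts are per gene and do not separate the R172H allele from the p53neo allele, so they do not measure restoration. Markers of the T lineage (Thy1, Cd2, Cd5, Cd6, Lck, Lat, Bcl11b, Cd28 and Ptprc) were present in every tumour, with a summed level of 3105 to 4986 CPM in non-responders and 1429 to 4651 CPM in responders. Responder 4 had the lowest sum of T-lineage markers, 1429 CPM, and the highest sums of B-cell (3563 CPM), muscle (1366 CPM) and adipocyte markers (2587 CPM). Ptprc alone gave 881 CPM of that T-lineage sum. It also gave 2962 of 4986 CPM in non-responder 2 and 3471 of 4651 CPM in responder 7. Gene by gene, responder 4 was the lowest tumour for Lck and Bcl11b, but not for Thy1, Cd2, Cd5, Cd6, Lat, Cd28 or Ptprc. For Thy1, Lck, Lat and Bcl11b, all of responders 4 to 8 lay below every non-responder. Lck, for example, was at 39.8 to 340 CPM in responders 4 to 8 and at 587 to 876 CPM in non-responders. For Cd2, Cd5, Cd6, Cd28 and Ptprc this did not hold. Summed B-cell markers were 201 to 556 CPM in non-responders and 201 to 3563 CPM in responders, with 10 of 10 lower in non-responders on average. Muscle markers were 76.2 to 346 CPM and 162 to 1366 CPM in the same order, with 10 of 10 lower in non-responders, and adipocyte markers 84.8 to 123 CPM and 99.4 to 2587 CPM, with 9 of 9 tested lower. Markers of NK cells summed to 97.6 to 165 CPM in non-responders and 26.1 to 437 CPM in responders, with 6 of 8 tested lower. Markers linked to gamma-delta T cells summed to 75.6 to 207 CPM in non-responders and 104 to 1545 CPM in responders, with 7 of 8 tested lower. The other lists followed the same order of groups: neutrophil markers summed to 7.85 to 25.1 and 25.3 to 687 CPM (9 of 9 tested lower in non-responders), erythroid to 15.3 to 363 and 140 to 2792 CPM (8 of 8), endothelial to 121 to 175 and 178 to 704 CPM (10 of 10) and thymic epithelial to 17.3 to 177 and 39.9 to 253 CPM (10 of 10). Macrophage markers summed to 531 to 1460 CPM in non-responders and 474 to 1763 CPM in responders (8 of 10 lower), and fibroblast markers to 1165 to 2064 and 480 to 2104 CPM (5 of 10 lower). The fibroblast list shares Thy1 with the T-lineage list, at 307 to 575 CPM in non-responders and 71.8 to 535 CPM in responders. Part of the fibroblast sum may therefore come from T cells. edgeR called 0 genes in each of these lists, as it did over all 18612 genes tested. DESeq2, which called 11.9% of the 21528 genes it tested, called 5 of the gamma-delta, 5 of the NK, 8 of the B-cell, 8 of the muscle, 8 of the adipocyte, 7 of the neutrophil, 7 of the erythroid, 7 of the endothelial, 2 of the thymic epithelial, 0 of the macrophage, 1 of the fibroblast and 0 of the T-lineage markers. limma-voom, which called 9.26% of all 18612 genes, called 4 of the erythroid, 3 of the muscle, 2 each of the NK, adipocyte, fibroblast and thymic epithelial, 1 each of the endothelial and T-lineage, and 0 of the gamma-delta, B-cell, macrophage and neutrophil markers. Thy1 is counted in both the fibroblast and the T-lineage calls of limma-voom. No listed marker was at 0 in all 12 tumours, and the part of these cells in the results below was not tested. In bulk tumour RNA, fewer cells of a type and less RNA per cell cannot be told apart.

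The beta constant genes lie on the plus strand of chromosome 6 in GRCm38, Trbc1 (ENSMUSG00000076490) at chr6:41538218-41539881 and Trbc2 (ENSMUSG00000076498) at chr6:41546730-41548352, with 6848 bases between them. Their coding sequences of 518 bases align without a gap and are identical at 495 positions (95.6%), with 1 identical run of 259 bases. Of all 75-base windows of the GENCODE M21 transcripts, 34.6% of those of Trbc1 also occur in Trbc2 and 37.7% of those of Trbc2 in Trbc1. Reads of 75 bases from there fit both genes, and no source used here says how the authors' counting treated them. The levels of Trbc1 and Trbc2 are therefore uncertain where the copies coincide. Most differences stand at the 3′ end of the coding part, which encodes the end of the connecting piece, the membrane span and the short tail of the beta chain. The last 120 coding bases of each gene, spliced, at chr6:41539234-41539662 for Trbc1 and chr6:41547777-41548178 for Trbc2, are printed here because reads there can tell the genes apart. Capitals mark the 19 bases that differ between the genes, read 5′ to 3′ from the GENCODE M21 transcripts.
Trbc1: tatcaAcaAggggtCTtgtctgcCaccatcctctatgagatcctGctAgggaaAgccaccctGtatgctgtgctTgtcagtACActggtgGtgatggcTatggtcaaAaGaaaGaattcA
Trbc2: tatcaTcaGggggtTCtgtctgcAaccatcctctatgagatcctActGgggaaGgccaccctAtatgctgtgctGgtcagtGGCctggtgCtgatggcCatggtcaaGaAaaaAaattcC

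The tumours differed widely in which beta constant gene they transcribed, and both groups held tumours with much and with hardly any Trbc1. Trbc1 stood at 851, 0.834, 115 and 223 CPM in non-responders 1 to 4, while in responders it ran from 2.96 CPM (responder 6) over a median of 189 CPM to 413 CPM (responder 5). The highest and the lowest tumour, non-responders 1 and 2, differ 1021-fold, and all 8 responders lie between them. Trbc2 stood at 427, 920, 227 and 714 CPM in non-responders 1 to 4, and from 136 CPM (responder 7) over a median of 231 CPM to 719 CPM (responder 8) in responders. It varied far less, 6.74-fold over all tumours. In each tumour the counts of both genes can be set against each other without any scaling between libraries. Trbc1 took 66.6% of the beta constant counts in non-responder 1 (Wilson 95% interval 66.0 to 67.1), 0.0906% in non-responder 2 (0.0566 to 0.145), 33.7% in non-responder 3 (32.6 to 34.7) and 23.8% in non-responder 4 (23.2 to 24.4). In non-responder 2 that share is 17 Trbc1 counts beside 18754 of Trbc2.

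Among the responders, Trbc1 was nearly absent from responder 1, at 0.729% (0.590 to 0.901, or 85 counts beside 11574), and from responder 6, at 1.502% (1.22 to 1.85, or 87 counts beside 5706). It took 6.65% in responder 4 (6.09 to 7.26) and 18.0% in responder 8 (17.5 to 18.5). Responder 2 was at 39.8% (39.0 to 40.6) and responder 3 at 54.7% (53.9 to 55.6). Responder 5 was at 65.3% (64.5 to 66.0) and responder 7 at 61.7% (60.7 to 62.7). Over all tumours 4 had under 10% Trbc1, 4 had over 50% and 4 lay between. The intervals cover counting error only, since the labels mention no molecular identifiers. The share averaged 31.0% ± 27.6 in non-responders and 31.1% ± 27.5 in responders (SD, n = 4 and 8). The difference of -0.0218 percentage points was far inside the spread (exact permutation test over all 495 splits, two-sided, p = 0.994, and 0.994 after adjustment over the 3 within-tumour values tested). Its sign turned when 1 of several tumours was left out, with differences from -11.9 to 10.3 points.

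**Figure D1:**
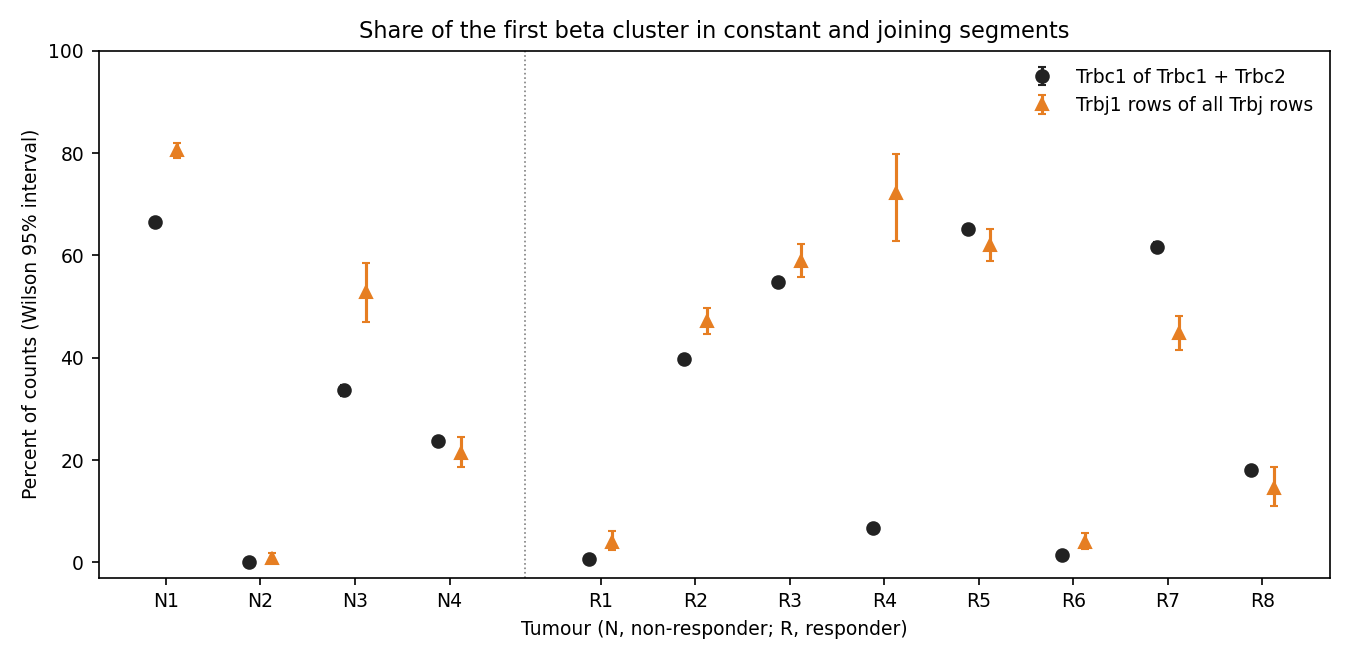
Percent of beta constant counts from Trbc1 (circles) and percent of beta joining-segment counts from Trbj1 rows (triangles) in each tumour, with Wilson 95% intervals; N1 to N4 are non-responders and R1 to R8 responders. Both shares are lowest in N2, R1 and R6, and they part in R4, at 6.65% and 72.1%.

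The joining segments of the same locus gave a separate reading of that choice. They were looked at after the constant-gene values had been seen and are described without a test. The table holds 7 Trbj1 rows, which lie before Trbc1, and 7 Trbj2 rows, which lie between Trbc1 and Trbc2, with 104 to 2805 counts per tumour in all. Trbj1 rows took 80.6% of them in non-responder 1, 0.902% in non-responder 2, 52.8% in non-responder 3 and 21.4% in non-responder 4. In responders the share was 3.94% in responder 1, 47.2% in responder 2, 59.0% in responder 3, 72.1% in responder 4, 62.1% in responder 5, 3.97% in responder 6, 44.8% in responder 7 and 14.5% in responder 8. In 11 of 12 tumours the shares of Trbj1 and Trbc1 were within 20 percentage points of each other. The exception was responder 4, the tumour with the fewest joining-segment counts (75 of Trbj1 and 29 of Trbj2), where they stood 65.5 points apart. Non-responder 2 and responders 1 and 6, all but lacking Trbc1, had 8, 17 and 25 Trbj1 counts beside 879, 415 and 605 of Trbj2.

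The variable segments of the beta chain, also read after the fact and without a test, showed a single leading segment in most tumours. The table holds 20 rows named Trbv, of 35 such genes in GENCODE M21, so segments outside those 20 are not seen. In non-responder 1, Trbv13-1 took 95.9% of 9872 Trbv counts, and Trbv5 took 98.3% of 8028 in non-responder 2 and 97.8% of 8558 in non-responder 4. Non-responder 3 was the most mixed tumour, with Trbv19 at 47.8% of 2556 counts and Trbv16 next with 340 counts. Responder 8 was led by Trbv16, with 99.0% of 12390 counts, and responder 1 by Trbv3, with 75.4% of 9075. Responder 2 was led by Trbv13-3 (61.6% of 5571) and responder 3 by Trbv31 (74.8% of 3919). Trbv13-2 led in 4 tumours, responders 4 to 7, with 82.1%, 97.6%, 77.5% and 97.2% of 1840, 2885, 2674 and 3651 counts. The leading segment took over 95% in 6 tumours, 3 of them non-responders and 3 responders. Counts on Trbv13-1, Trbv13-2 and Trbv13-3, which are related segments, may be split between them by the authors' counting.

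**Figure D2:**
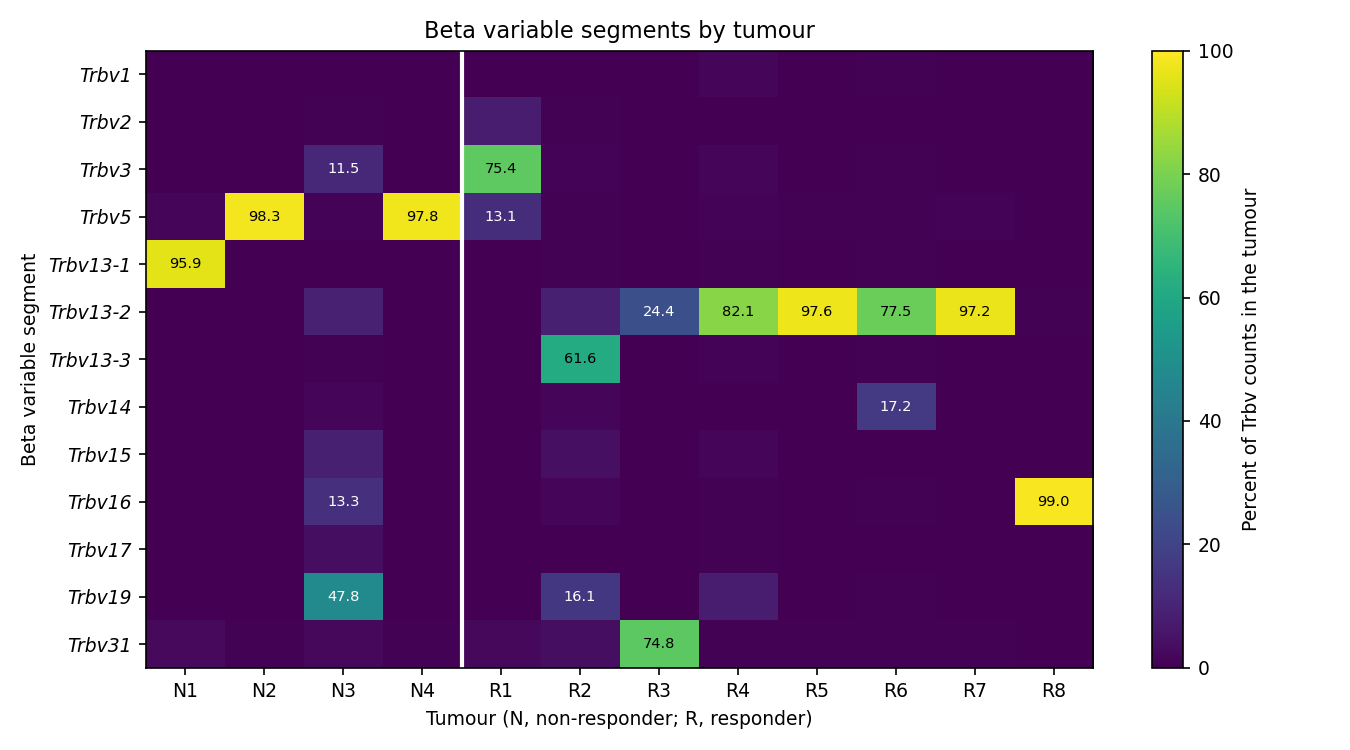
Percent of all Trbv counts taken by beta variable segments (rows) in each tumour (columns), with values of 10% or more printed. Not all of the 20 Trbv rows are drawn. Non-responders are left of the white line and responders right of it. In 6 tumours a single segment holds over 95%, while N3 spreads over several, led by Trbv19 at 47.8%.

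Taking both beta constant genes together removes the choice between them. If the counting dropped reads that fit both genes, the sum lacks them too, as does the beta side of the alpha-to-beta ratio below. The sum was 1279, 921, 341 and 936 CPM in non-responders 1 to 4. In responders it ran from 197 CPM (responder 6) over a median of 487 CPM to 877 CPM (responder 8). Of the 8 responders, 6 lay within the range of the non-responders and 2 (responders 4 and 6, at 229 and 197 CPM) below it. For the genes taken singly, the log2 fold change of Trbc2 was 0.84 (SE 0.44, edgeR quasi-likelihood test, adjusted p = 0.259), with 0.42 when 1 surrogate variable was added and 0.54 without non-responder 2. That of Trbc1 was 0.80 (SE 1.28, edgeR adjusted p = 0.731). The Trbc1 difference rests on non-responder 1, without which it was -0.59.

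Trac (ENSMUSG00000076928, chr14:54220521-54224206, plus strand), the only constant gene of the alpha chain, was the member that varied most after Trbc1. It stood at 102, 19.4, 31.2 and 13.4 CPM in non-responders 1 to 4, and from 3.71 CPM (responder 3) over a median of 65.9 CPM to 156 CPM (responder 7) in responders. Non-responder 1 lay apart from the other 3 of its group, and 3 responders lay above all non-responders while 1 lay below. The log2 fold change was -0.80 (SE 0.79, edgeR adjusted p = 0.555). It was -1.75 without non-responder 1, -0.50 without non-responder 4, -0.55 without non-responder 2, -0.54 without responder 7 and -0.36 with 1 surrogate variable. Relative to beta, Trac counts were 7.94%, 2.10%, 9.14% and 1.43% of the summed Trbc1 and Trbc2 counts in non-responders 1 to 4. Responders 4, 6 and 7 had 49.6%, 43.8% and 43.8%, and the other responders 10.3% (responder 1), 17.6% (responder 2), 0.694% (responder 3), 5.58% (responder 5) and 2.41% (responder 8). The 59 alpha joining (Traj) rows held 4226, 1190, 841 and 314 counts in non-responders 1 to 4, against 2213, 395, 678 and 295 of Trac. They also exceeded Trac in responders 1, 2, 3, 6 and 8, but not in responders 4, 5 and 7 (1571, 493 and 1706 against 3490, 864 and 4189). The reason was not tested, so Trac counts may not give the full alpha-chain level. The mean log2 ratio of alpha to beta counts was -4.70 ± 1.35 in non-responders and -3.23 ± 2.23 in responders (SD, n = 4 and 8). The difference of -1.47 did not exceed the spread (exact permutation test, two-sided, p = 0.251, adjusted over the 3 values p = 0.406). In responders 4, 6 and 7 the high ratio came with a low beta sum, 229, 197 and 356 CPM, and with Trac at 114, 86.4 and 156 CPM. Non-responder 3 also had a low beta sum, 341 CPM, but Trac at 31.2 CPM and 9.14% of the beta counts. Summed gamma-delta T-cell markers were 1021, 1303 and 1025 CPM in responders 4, 6 and 7. They were also high in responders 5 and 8, at 1545 and 659 CPM, whose ratios were low, and were 104 to 205 CPM in responders 1 to 3. Few genes carried these sums, such as 5830411N06Rik (8.26, 747 and 411 CPM in responders 4, 6 and 7), Zbtb16 (331, 378 and 29.99 CPM) and Cd163l1 (1.30, 29.4 and 522 CPM). The gamma constant genes summed to 97.7, 54.6 and 5.14 CPM in the same tumours, and the last is the lowest of all tumours. The part of these markers in the ratio was not tested. Without responder 4 the difference in log2 ratio was -1.15 (exact permutation p = 0.358, adjusted p = 0.536).

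The delta constant gene has no value here, but other delta segments, which lie inside the alpha locus and are cut out when it rearranges, do. The 5 Trdv rows together held 564, 31, 97 and 66 counts in non-responders 1 to 4. Among responders they held 267 in responder 8, 131 in responder 1, 63 in responder 3 and 2 to 8 in the other 5. The 2 Trdj rows held 191, 1, 37 and 12 counts in non-responders 1 to 4, and 615 in responder 8, whereas responders 2, 5, 6 and 7 had 0 counts, which allows up to 0.115, 0.126, 0.119 and 0.113 CPM (3 counts). Responder 8 thus had the highest Trdj count, 24.4 CPM, beside 719 CPM of Trbc2 and a nearly pure Trbv16. The gamma constant genes Tcrg-C1 to Tcrg-C4 summed to 16.9, 430, 32.7 and 7.58 CPM in non-responders 1 to 4. They ran from 5.14 CPM (responder 7) to 225 CPM (responder 5) in responders. Non-responder 2, with the highest gamma sum, was also the tumour with the purest Trbc2 use. Of 18 gamma and delta symbols looked up, some of them alternative spellings, 11 had a row and 8 were tested. None passed in edgeR, 1 of 8 had an unadjusted p below 0.05 (23.8% of all genes did), DESeq2 called 0 (11.9% of the genes it tested) and limma-voom 2 (Trdv2-1 and Trdv2-2, against 9.26% of all genes). The gene with that p, Trdv2-1, averaged 2.05 CPM in non-responders and 0.288 CPM in responders, a log2 difference of 2.82 (edgeR adjusted p = 0.182, SE 1.21). Next came Trdv1, at 1.51 and 0.218 CPM, and Trdv2-2, at 4.15 and 0.642 CPM, in the same order of groups (edgeR adjusted p = 0.226 and 0.241). Non-responder 1 carried these means. It had 5.92 CPM of Trdv2-1, against 0.490, 0.736 and 1.04 CPM in non-responders 2 to 4. Likewise it had 4.73 CPM of Trdv1, against 0 to 0.920 CPM in the other 3, and 12.8 CPM of Trdv2-2, against 0.785 to 1.98 CPM.

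**Figure D3:**
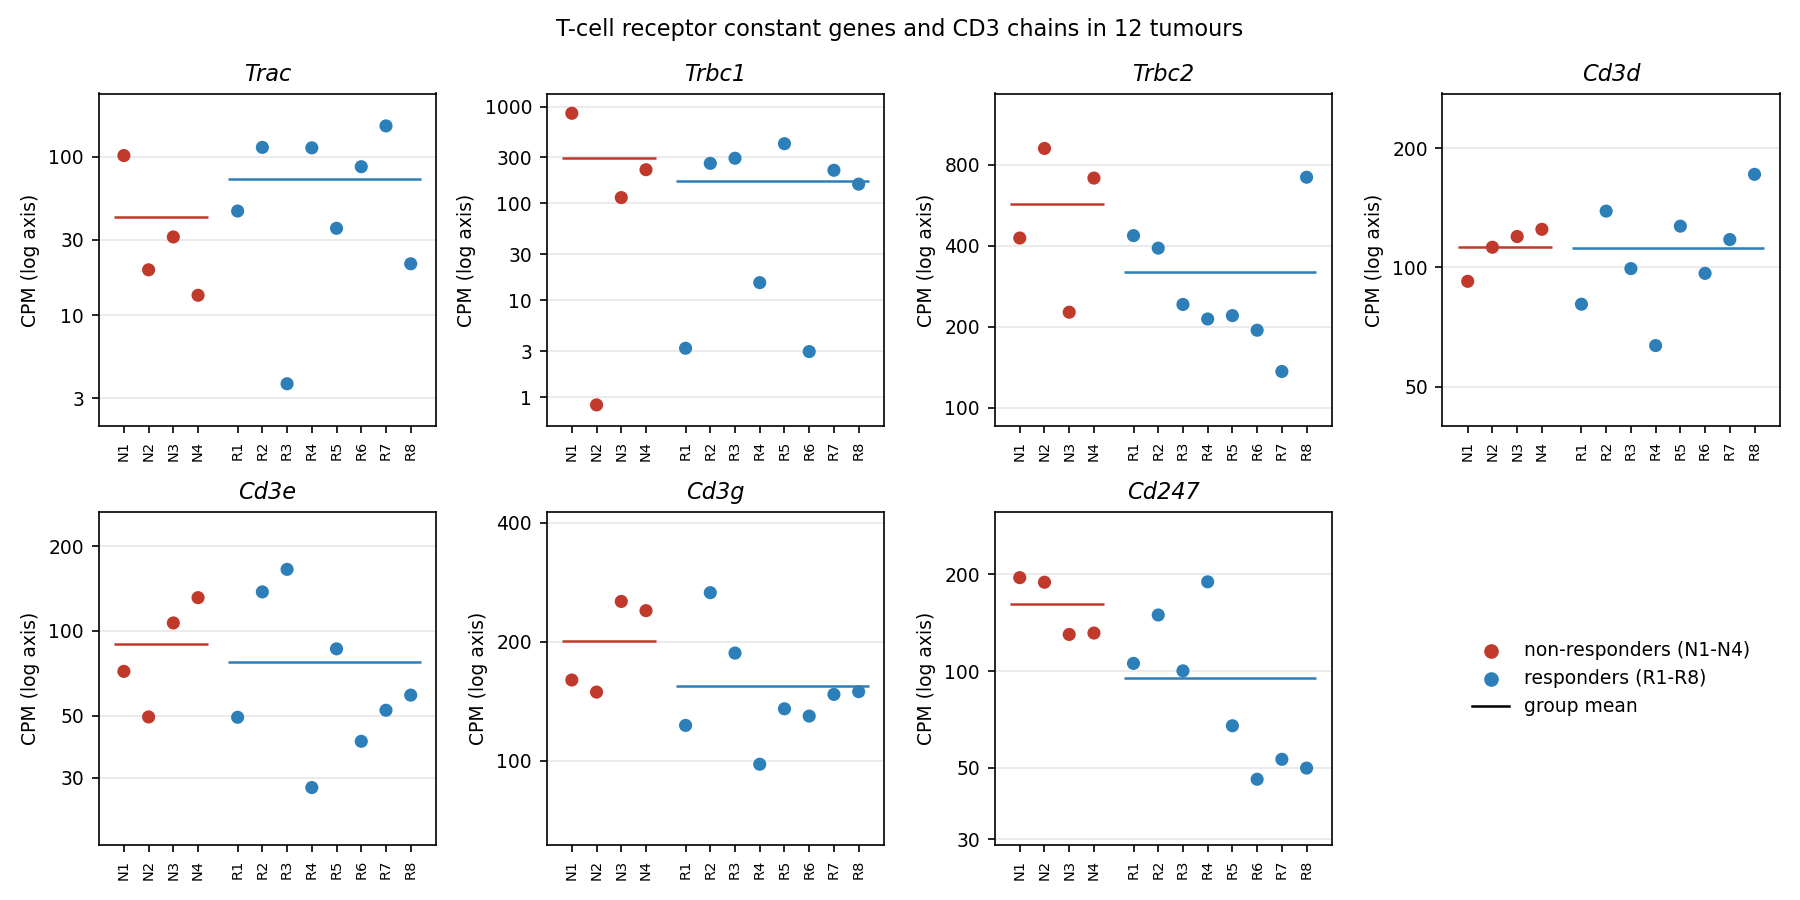
Level in CPM (log axis) of each of the 7 measured genes in every tumour, non-responders N1 to N4 left and responders R1 to R8 right, with the group mean as a line. Trbc1 and Trac spread over orders of magnitude, whereas Cd3d and Cd3g stay within 2.71-fold and 2.72-fold.

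The genes of CD3 gamma, delta and epsilon form a cluster of 40056 bases on chromosome 9 (GRCm38), in the order Cd3g (ENSMUSG00000002033, chr9:44969572-44980431, minus strand), Cd3d (ENSMUSG00000032094, chr9:44981786-44987339, plus strand) and Cd3e (ENSMUSG00000032093, chr9:44998740-45009627, minus strand). Cd3g and Cd3d are transcribed away from each other with 1354 bases between them. Cd3d was the most even of the 7 genes. It was at 92.2, 112, 120 and 125 CPM in non-responders 1 to 4, and from 63.5 CPM (responder 4) over a median of 108 CPM to 172 CPM (responder 8) in responders. Its group means were 112 ± 14.3 CPM in non-responders and 112 ± 34.4 CPM in responders (SD, n = 4 and 8). On the log2 scale they differed by 0.00 (edgeR adjusted p = 0.992, SE 0.23), and the sign turned with upper-quartile scaling (-0.059) and without responder 4 (-0.073). Cd3g, the chain that pairs with epsilon in the other heterodimer, was at 160, 149, 253 and 240 CPM in non-responders 1 to 4. In responders it ran from 98.0 CPM (responder 4) over a median of 141 CPM to 266 CPM (responder 2). Of the 8 responders, 5 lay below all non-responders and 1 above. The log2 fold change of 0.38 (SE 0.25) did not pass (edgeR adjusted p = 0.375).

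Cd3e, whose chain pairs with both gamma and delta, varied more, 5.98-fold over the tumours. It was at 71.8, 49.4, 107 and 131 CPM in non-responders 1 to 4, and from 27.7 CPM (responder 4) over a median of 55.7 CPM to 166 CPM (responder 3) in responders. The groups overlapped from end to end, and the log2 fold change was 0.22 (SE 0.45, edgeR adjusted p = 0.799); it was -0.024 without non-responder 4 and -0.72 with 1 surrogate variable. Cd3e and Cd3g were high in the same tumours, since the 4 tumours with the most Cd3e (responders 3 and 2 and non-responders 4 and 3) were also the 4 with the most Cd3g. Of the top 4 for Cd3d, 2 were among these. Responder 4 was the lowest of all tumours for Cd3d, Cd3e and Cd3g, as it was for the summed T-lineage markers.

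Cd247 (ENSMUSG00000005763, chr1:165788681-165877277, plus strand), the zeta chain with most of the ITAMs of the complex, had the lowest p of the 7 measured genes between the groups. It stood at 195, 189, 130 and 131 CPM in non-responders 1 to 4. Responders 1 to 4 had 106, 149, 100 and 190 CPM, and responders 5 to 8 had 67.6, 46.1, 53.2 and 49.9 CPM. Of the 8 responders, 6 lay below all non-responders and 2 (responders 2 and 4) within their range. The group means were 161 ± 35.6 CPM in non-responders and 95.2 ± 52.0 CPM in responders (SD, n = 4 and 8). The log2 fold change of 0.76 (SE 0.36) did not pass in edgeR (unadjusted p = 0.0572, adjusted p = 0.224), DESeq2 (adjusted p = 0.197) or limma-voom (adjusted p = 0.0524). In GENCODE M21, 51.1% of the 75-base windows of Cd247 transcripts also occur in Pou2f1, which overlaps it on the opposite strand, and 2.42% in Gm16565. No source used here says whether counting used the strand, and reads in the overlap cannot be assigned without it. Pou2f1 itself averaged 79.6 ± 10.99 CPM in non-responders and 70.1 ± 20.8 CPM in responders (SD, n = 4 and 8), a log2 difference of 0.18 (edgeR adjusted p = 0.618). Gm16565 averaged 14.0 ± 7.01 CPM in non-responders and 7.07 ± 3.21 CPM in responders (SD, n = 4 and 8), a log2 difference of 0.99 (edgeR adjusted p = 0.165). Without responder 4, the tumour with the lowest sum of T-lineage markers, the Cd247 difference was 0.98 (SE 0.32, edgeR adjusted p = 0.166).

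Set against the other CD3 chains in the same tumour, Cd247 did not keep a fixed proportion. The log2 ratio of Cd247 to the summed Cd3d, Cd3e and Cd3g counts was -0.73, -0.72, -1.88 and -1.92 in non-responders 1 to 4. In responders it ran from -2.93 (responder 8) over a median of -2.27 to 0.00 (responder 4). Responder 4 thus had about as many Cd247 counts as counts of the other chains together, with the lowest summed CD3 level, 189 CPM, and a Cd247 level of 190 CPM. The ratio averaged -1.31 ± 0.68 in non-responders and -1.96 ± 0.94 in responders (SD, n = 4 and 8), a difference of 0.65 (exact permutation test, two-sided, p = 0.271, adjusted over the 3 values p = 0.406). Without responder 4 the difference was 0.93 (exact permutation p = 0.0545, adjusted p = 0.164), and 5 of the 8 responders lay below every non-responder.

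**Figure D4:**
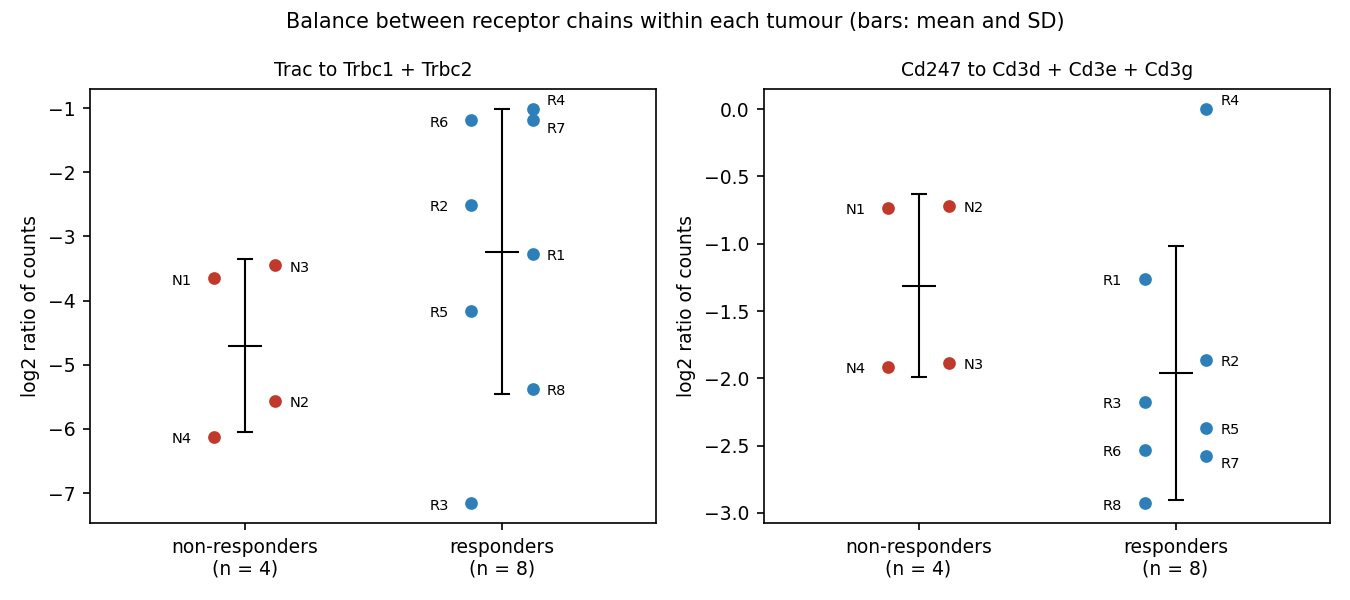
Log2 ratio of counts within each tumour, alpha to beta constant genes on the left and Cd247 to the other CD3 chains on the right, with non-responders left of responders in each panel; points are tumours and bars the mean and SD. Responder 3 is lowest for alpha to beta at -7.16, and responder 4 is highest in both panels, at -1.01 and 0.00.

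None of the 7 measured genes passed the test between non-responders and responders. edgeR called 0 of 7 at an adjusted p of 0.05, where it called 0 (0%) of all 18612 genes tested. At an unadjusted p below 0.05 it had 0 of the 7 and 23.8% of all genes (7.73% higher and 16.1% lower in non-responders). limma-voom called 0 of 7 (9.26% of all genes) and DESeq2 0 of 7 (11.9% of the 21528 genes it tested, a larger set). The CPM ranges of the groups overlapped for all 7, while 0.951% of all genes were wholly higher and 1.18% wholly lower in non-responders. On group means, 6 of the 7 were higher in non-responders, where 48.5% of all genes were, and their median log2 fold change was 0.38 beside -0.02 over all genes. Read singly, this direction is not firm for Trbc1, Cd3d, Cd3e and Cd3g, whose signs turned in at least 1 alternative (Cd3g with 1 surrogate variable, -0.13). Without responder 4 the log2 fold changes were -0.67 for Trac, 0.63 for Trbc1, 0.79 for Trbc2, 0.095 for Cd3e and 0.31 for Cd3g, and none passed.

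**Figure D5:**
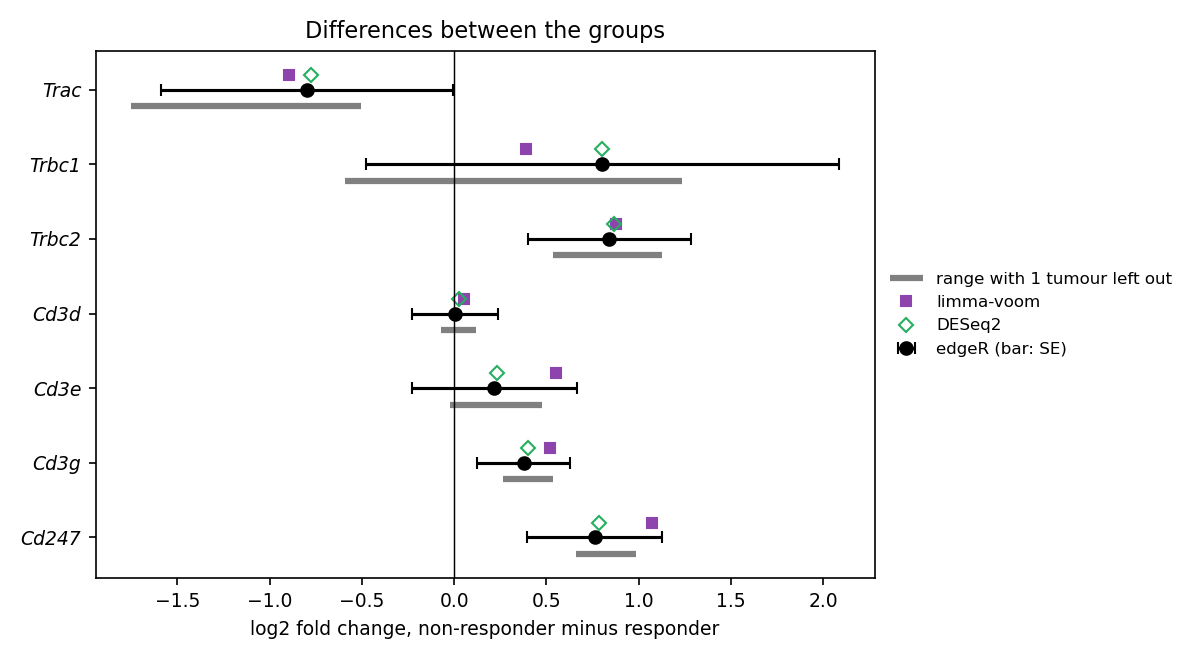
Log2 fold change, non-responder minus responder, of each of the 7 measured genes, with the edgeR value and its SE (black), limma-voom (square), DESeq2 (diamond) and the range with 1 tumour left out (grey). Cd247, Trbc2 and Cd3g stay above 0 and Trac below 0 in all of these, and Trbc1, Cd3d and Cd3e cross it.

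Levels of different genes can be compared only per length, here as CPM per kilobase of GENCODE M21 exons, an annotation that may differ from the one used in counting. On this scale the mean level over all 12 tumours was highest for Trbc2, at 583, followed by Trbc1 at 284. That order is one of means, since Trbc1 exceeded Trbc2 per kilobase in 4 of 12 tumours and lay below both Trac and Cd3d in 4 of 12. Trac (66.1), Cd3d (61.7) and Cd3g (52.0) came next and were close. Trac exceeded Cd3d in 6 of 12 tumours and Cd3d exceeded Cd3g in 8 of 12, so these neighbours have no firm order. Cd247, at 22.01, and Cd3e, at 19.98, were lowest, and Cd247 exceeded Cd3e in 4 of 12. The beta constant genes together were above Trac per kilobase in 12 of 12 tumours.

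Partners of these chains gave further values. Ptcra, the surrogate alpha chain of the pre-T-cell receptor, was at 27.8, 68.4, 44.1 and 40.9 CPM in non-responders 1 to 4. It was at 9.95, 32.0 and 54.2 CPM in responders 1 to 3, while responder 5 had 3 counts and responders 4, 6, 7 and 8 had 0. The coreceptor gene Cd8a averaged 435 ± 238 CPM in non-responders and 175 ± 148 CPM in responders, Cd8b1 averaged 188 ± 137 and 91.0 ± 90.3 CPM, and Cd4 averaged 116 ± 80.6 and 78.7 ± 47.6 CPM, in the same order (SD, n = 4 and 8). Of these 5 partner genes (with Trat1), edgeR called 0, with 0 at an unadjusted p below 0.05, DESeq2 0 and limma-voom 1, which was Ptcra (limma-voom adjusted p = 0.024). Over all genes 23.8% had such an unadjusted p and limma-voom called 9.26%.

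The genes that pass on the signal of the complex also gave no call in edgeR. Of 27 proximal kinases and adaptors tested, 11 were higher and 16 lower in non-responders, with a median log2 fold change of -0.10. edgeR called 0 and DESeq2 0, limma-voom 1 (Lcp2), and 3 had an unadjusted edgeR p below 0.05, all lower, a share below the 16.1% of all genes lower at that p. These were Lcp2, the adaptor SLP-76, at 87.3 CPM in non-responders and 152 CPM in responders (log2 fold change -0.80, SE 0.32), Txk, a Tec-family kinase, at 10.1 and 38.1 CPM (-1.91, SE 0.81), and Rasgrp1, a Ras activator downstream of the receptor, at 81.9 and 161 CPM (-0.97, SE 0.43). Their edgeR adjusted p lay between 0.156 and 0.192. Lck, which phosphorylates the ITAMs and is named here after its values were seen, averaged 778 CPM in non-responders and 414 CPM in responders (log2 difference 0.91, SE 0.54, edgeR adjusted p = 0.316), with 39.8 CPM in responder 4.

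Of 20 genes that restrain receptor signalling, 8 were higher and 12 lower in non-responders (median -0.22), with 0 called by edgeR, DESeq2 or limma-voom and 2 of 20 at an unadjusted edgeR p below 0.05, a smaller share than the 23.8% of all genes. Cblb, a ubiquitin ligase that limits activation, was at 49.9996 CPM in non-responders and 132 CPM in responders (-1.41, SE 0.53, edgeR adjusted p = 0.143). Sla2, an adaptor that lowers receptor signalling, was at 66.2 and 35.7 CPM (0.89, SE 0.40, edgeR adjusted p = 0.194), and Ubash3b, a phosphatase acting on ZAP-70 and Syk, at 15.6 and 41.0 CPM (-1.39, SE 0.68). Among 13 transcription factors with roles in T-cell receptor and CD3 gene expression or T-cell identity, 10 were higher and 3 lower in non-responders (median 0.42), with 0 called by edgeR or DESeq2, 2 by limma-voom (Lef1 and Tcf3, against 9.26% of all genes) and 2 of 13 at an unadjusted edgeR p below 0.05 (23.8% of all genes). The genes with such a p were Runx3, at 18.8 CPM in non-responders and 37.4 CPM in responders (-0.99, SE 0.41), and Tcf3, the gene of E2A, at 160 and 98.0 CPM (0.71, SE 0.31). Bcl11b, a T-lineage identity factor, was at 452 and 264 CPM (0.77, SE 0.37).

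Signalling chains that serve receptors other than the T-cell receptor (Fcer1g, Tyrobp, Hcst, Cd79a and Cd79b) were all lower on average in non-responders, 5 of 5. Their median log2 fold change was -1.97, while 48.5% of all genes were higher and the median was -0.02. Fcer1g and Tyrobp differed least, at -0.47 (SE 0.45, edgeR adjusted p = 0.545) and -0.33 (SE 0.41, edgeR adjusted p = 0.638). edgeR called 0 of 5, DESeq2 3 (11.9% of the genes it tested) and limma-voom 0 (9.26% of all genes), and 3 had an unadjusted edgeR p below 0.05, all lower (16.1% of all genes). Hcst, the DAP10 adaptor of the NKG2D receptor, was at 5.13 CPM in non-responders and 20.1 CPM in responders (-1.97, SE 0.67, edgeR adjusted p = 0.125), with 3.74 to 7.54 CPM in responders 1 to 3 and 14.5 to 42.3 CPM in responders 4 to 8. Cd79a and Cd79b, the signalling chains of the B-cell receptor, were at 2.15 and 5.73 CPM in non-responders and at 9.25 and 27.1 CPM in responders (-2.10 and -2.24). The B-cell markers, of which these genes are part, were also lower on average in non-responders (summed 201 to 556 CPM in non-responders and 201 to 3563 CPM in responders).

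The genes whose level over the 12 tumours ran most like the mean log2 CPM of Cd3d, Cd3e and Cd3g were Appbp2 (Pearson r of 0.97 and Spearman rho of 0.98 over 12 tumours), Nudcd2 (0.94 and 0.92), Aasdhppt (0.93 and 0.87), Fam122b (0.93 and 0.94) and Etaa1 (0.93 and 0.94). For Trac they were Flicr (0.91 and 0.87), Chrna2 (0.90 and 0.84), Abcg3 (0.90 and 0.86), Fgd6 (0.88 and 0.85) and Ptk2b (0.87 and 0.81), the last a kinase of T-cell signalling. These are the highest of 18612 genes, picked for that, and all genes in a tumour share its library depth and tissue content.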

How the data were processed

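RNA-seq was analysed for 12 tumours, 4 non-responders and 8 responders. The authors deposited a single table of unnormalized whole-number counts, with Ensembl genes as rows. TruSeq mRNA libraries were read as 75-base paired ends, per the labels' protocols. HTSeq and DESeq are named in the submitters' processing notes without versions. The notes name the build NCBIM37 and the extract protocol in the labels mm10, so the build is not settled, and no source used here names the aligner or the use of strand. Symbols were matched by identifier to GENCODE M21 (GRCm38), with 32919 of 37991 matched, and coordinates are from M21.

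Counts were filtered with filterByExpr, scaled by TMM and tested with edgeR 4.0.16 (quasi-likelihood, robust, group as the sole term, R 4.3.3) over all 18612 genes, with Benjamini-Hochberg adjustment and a threshold of 0.05, two-sided. Fold changes are log2 of non-responders over responders, and SEs come from the F statistic. Within-tumour ratios used raw counts (0.5 added to each sum on the log2 scale) and exact permutation tests (scipy 1.17.1). A planned share of Trdc in the alpha and delta constant counts could not be formed, so adjustment was over 3 ratios. Alternatives were other scalings and filters, limma 3.58.1, DESeq2 1.42.0, 1 surrogate variable (sva 3.50.0) and leaving out each tumour. Likeness used log2 CPM with a prior count of 2. The procedure was tested on simulated data with 200 changed genes. Of the 2-fold changes, edgeR recovered 16%, limma-voom 10% and DESeq2 26%. Of the 4-fold changes they recovered 74%, 70% and 90%. A missing call therefore does not show equal levels in the groups. The lowest chi-square per degree of freedom over the 66 pairs of libraries was 58.8, so none is a repeat. The genes, lists and tests were chosen with earlier results of these data known. Named are all measured members and the 3 genes with the lowest p of each pathway list. Also named are the overlapping Pou2f1 and Gm16565. Lck, Ptcra, Fcer1g, Tyrobp and the alpha joining, beta and delta segments were taken up after their values were seen. The 5 genes most like each pattern are named too, among those with a symbol that are neither predicted genes nor receptor segments.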

Additional observations from a re-analysis of the deposited data

How the results depend on the processing

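No member passed the adjusted threshold in edgeR, limma-voom or DESeq2 or with any 1 tumour left out. Of the 140 alternative values of the 7 genes, 127 kept their sign and 13 turned it. Trbc1 turned with 1 surrogate variable (-0.047) and without non-responder 1 (-0.59), Cd3e with 1 surrogate variable (-0.72) and without non-responder 4 (-0.024), and Cd3g with 1 surrogate variable (-0.13). Cd3d, near 0 throughout, turned with upper-quartile scaling (-0.059), 1 surrogate variable (-0.19) and 6 left-out tumours (range over all 12 from -0.073 to 0.12). With 1 tumour left out, Trac ran from -1.75 to -0.50, Trbc1 from -0.59 to 1.23, Cd3e from -0.024 to 0.47, Cd247 from 0.66 to 0.98, Trbc2 from 0.54 to 1.13 and Cd3g from 0.27 to 0.53. The difference in Trbc1 share ran from -11.9 to 10.3 percentage points, that in log2 alpha to beta from -2.03 to -0.99 and that in log2 Cd247 to CD3 from 0.45 to 0.93. The Trbc1 share turned without non-responder 2 (10.3) or 4 (2.39) and without responder 2 (1.23), 3 (3.36), 5 (4.87) or 7 (4.36). Over all genes edgeR called 0, with 1723 in limma-voom, 2567 in DESeq2, 1 at a threshold of 0.1, and from 0 to 5 with 1 tumour left out (3 without non-responder 1, 1 without non-responder 3, 5 without responder 3, 0 otherwise); the cause of these differences was not tested. No paired analysis was possible because the labels give no pairing of the tumours. The planned share of Trdc was not run. Trbc1 counts of 17 to 87 in 3 tumours and 104 joining-segment counts in responder 4 limit those shares.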
